A study of Rattus norvegicus with 12 samples.

Results

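F-box protein genes were examined in the prefrontal cortex of female Sprague-Dawley rat pups on a 2-colour Agilent expression array. Members were all non-control probes whose gene name in the scanner output starts with Fbxo, Fbxl or Fbxw followed by a digit. That name rule gave 67 probes for 61 gene names, out of 30367 non-control probes on the array. There were 16 Fbxl, 36 Fbxo and 9 Fbxw genes. The set was chosen by this name rule and by the measured levels of Fbxo10, which had been seen to be lower in the exposed groups, so those levels against control are a description with no test.

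The study asked how corticosteroid exposure before birth alters the transcriptome of the brain. The comparison is between 3 groups of 4 pups. Dams of the control group received 2 saline injections on gestational day 15, and the pups received saline on postnatal day 14. Dams of the betamethasone group received 2 injections of betamethasone, a synthetic glucocorticoid, at 0.4 mg/kg each on gestational day 15, and the pups received saline on postnatal day 14. The third group had the same betamethasone exposure before birth, but the pups received ketamine, an NMDA receptor blocker, at 35 mg/kg on postnatal day 14, and is called the ketamine group. Tissue was taken on postnatal day 15 according to the sample descriptions, whereas the developmental stage field reads P145. No group received ketamine without betamethasone. The protocol states that the injected pups were showing infantile spasms on postnatal day 14, without saying which samples came from such pups or from which litter each pup came. The series design calls the 4 samples of a group biological replicates, and the p-values below measure the spread between these samples.

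F-box proteins are the interchangeable substrate receptors of SCF ubiquitin ligases. The F-box motif binds Skp1, which is carried on the scaffold Cul1 with the RING protein Rbx1, and the rest of the F-box protein selects the target that is ubiquitylated and usually degraded. The Fbxl proteins contact their targets through leucine-rich repeats, the Fbxw proteins through WD40 repeats, and the Fbxo proteins through other domains. In neurons, members of the family are known for roles in synaptic vesicle release, glycoprotein quality control and mitochondrial upkeep.

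Every value rests on a 60-base probe. The probe sequences of the genes on which the results turn are given first, 5′ to 3′, with capitals marking a polyadenylation hexamer (AATAAA or ATTAAA) where a search of the probe strand found one. Fbxo10 had 1 probe, at chr5:61600111-61600170 on the minus strand of the rat build rn4, the build named in the array files. Fbxw11 was read at chr10:17599830-17599889 on the plus strand, Fbxw5 at chr3:3677647-3677706 on the plus strand and Fbxo2 at chr5:165244450-165244509 on the plus strand. The 3 probes of Fbxl14 lie on the plus strand at chr4:155825611-155825670, chr4:155825921-155825980 and chr4:155827873-155827932, and are shown because they gave different signs. Positions within exons were not assigned, since an rn4 annotation was not used here.
Fbxo10: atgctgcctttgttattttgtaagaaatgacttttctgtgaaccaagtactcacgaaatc
Fbxw11: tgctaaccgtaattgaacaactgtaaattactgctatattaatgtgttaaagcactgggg
Fbxw5: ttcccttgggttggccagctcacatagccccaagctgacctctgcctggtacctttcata
Fbxo2: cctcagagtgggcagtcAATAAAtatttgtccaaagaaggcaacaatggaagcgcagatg
Fbxl14 probe 1: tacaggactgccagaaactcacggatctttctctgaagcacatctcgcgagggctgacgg
Fbxl14 probe 2: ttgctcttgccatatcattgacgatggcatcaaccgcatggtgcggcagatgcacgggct
Fbxl14 probe 3: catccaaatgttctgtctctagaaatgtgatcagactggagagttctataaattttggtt

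A hexamer was present in 7 of the 67 F-box probes (10.4%), against 11.2% of all non-control probes. The array files place 64 of the 67 probes in the genome and give no place for those of Fbxl13, Fbxo25 and Fbxo31. For 11 probes the placed interval was longer than 61 bases, so the probe is split over a gap in the genome. A Fbxo3 probe was placed over 61 bases, the Fbxo22 probe over 59 and a Fbxo21 probe over 30.

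Levels are normalised log2 intensities, on which a difference of 1 is a doubling. A probe was tested when it was well above background, by the scanner software's own flag, in 3 or more of the 4 pups of any group. This held for 55 F-box probes of 49 genes, and for 21530 probes in all. The 12 F-box genes without a tested probe were Fbxl8, Fbxl13, Fbxo5, Fbxo24, Fbxo32, Fbxo36, Fbxo39, Fbxo40, Fbxo43, Fbxo47, Fbxo48 and Fbxw10. Of these, 8 were not well above background in any sample, and Fbxl8, Fbxo5, Fbxo32 and Fbxo39 were so in 1 or 2 samples of at least 1 group. Fbxo32, known as atrogin-1, a ubiquitin ligase subunit that glucocorticoids induce in muscle, was well above background in 2 control samples and in 1 sample of each exposed group. Fbxo5, the Emi1 inhibitor of the anaphase-promoting complex, was so in 1 control sample and in 2 samples of each exposed group.

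A few facts of the whole series touch the results. The 2 dyes of an array carried 2 samples of the same group, and the 6 arrays lay on 2 slides. One slide held all controls and the other both exposed groups, so an effect of the slide cannot be told apart from the exposure against control. The share of the 42877 non-control spots that was well above background ranged from 71.4% to 81.5%, and the number of arrays limits the precision. In a principal component analysis over the tested probes, ketamine 1 and ketamine 2, which shared an array, lay at 57.75 and 55.69 on the first component (43.1% of the variance), with all others between -21.52 and -7.27. On that array 5.5% of spots fell in areas where spots departed together from the other arrays. All 9 genes fixed as markers of cortical excitatory neurons, such as Slc17a7, were well above background. Oligodendrocyte marker probes were lower in 12 of 14 in the betamethasone group against control, with a median log2 change of -0.49. Their summed level, as a log2 intensity, was 15.44 to 16.49 in the control group, 14.60 to 15.80 in the betamethasone group and 15.15 to 16.21 in the ketamine group, and none of them was called. In the ketamine group 10 of 14 were lower, with a median of -0.38. The 5 blood probes (haemoglobin genes and Alas2) were higher in 5 of 5 in the betamethasone group, with a median of 0.70, none called; their summed level was 16.27 to 18.59 in the control group, 17.78 to 19.09 in the betamethasone group and 17.42 to 18.84 in the ketamine group. Astrocyte probes were higher in 9 of 13 in the betamethasone group (5 at an unadjusted p under 0.05, median 0.18) and in 11 of 13 in the ketamine group (7, median 0.32), none called. Their summed level was 16.41 to 16.66 in the control group, 16.52 to 16.55 in the betamethasone group and 16.54 to 16.83 in the ketamine group. Endothelial and mural probes were higher in 5 of 6 in each exposed group (1 and 3 at an unadjusted p under 0.05, medians 0.19 and 0.29), none called. Their summed level was 13.39 to 13.75, 13.66 to 13.98 and 13.77 to 14.07 in the same order of groups. Microglia probes were higher in 5 and 6 of 9 (3 and 4 at an unadjusted p under 0.05). Oligodendrocyte precursor probes were lower in 3 and 4 of 4 (0 and 0), and interneuron probes in 7 and 5 of 10 (1 and 1). Excitatory neuron probes were higher in 6 and 7 of 9 (0 and 0). Over all tested probes 11.4% and 13.9% had such a p, and 56.3% and 64% were higher. The part of these shifts in the F-box results was not tested, and in bulk tissue fewer cells of a type and less RNA per cell cannot be told apart.

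Fbxo10, the receptor known for directing the apoptosis inhibitor Bcl2 to degradation in lymphoid cells, was lower in both exposed groups. Its log2 intensities were 10.49, 10.90, 10.77 and 10.81 in control samples 1 to 4. They were 9.06, 9.28, 9.59 and 9.64 in the betamethasone group. They were 9.62, 9.89, 9.28 and 9.68 in the ketamine group. Every exposed sample lay below every control sample, and the exposed groups overlapped each other. The log2 change against control was -1.35 (SE 0.17, n = 4 per group) after betamethasone, and -1.13 (SE 0.17) after betamethasone with ketamine. Ordered from the lowest change over the 21530 tested probes, Fbxo10 was number 43 in the first comparison and 267 in the second. These values chose the gene and are not evidence for it, and the SE and ranks make no allowance for that choice. Both changes share the 4 control samples, so the second does not repeat the first independently. The estimate without the array of betamethasone 1 and 2 was -1.13, and without that of betamethasone 3 and 4 it was -1.57. In the second comparison it was -1.26 without the array of ketamine 1 and 2 and -0.99 without that of ketamine 3 and 4.

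The comparison of the 2 exposed groups did not enter the choice of Fbxo10. Ketamine against saline after betamethasone gave a log2 change of 0.23 (SE 0.17, 95% interval -0.14 to 0.60), with a limma adjusted p of 0.909. That interval spans 0, and its sign turned under 1 alternative scaling, in which arrays were set to a common median after loess (-0.0019). The change of Fbxo10 was 0.0060 without the array of betamethasone 1 and 2 and 0.45 without that of betamethasone 3 and 4. It was 0.09 without the array of ketamine 1 and 2 and 0.36 without that of ketamine 3 and 4, and the limma adjusted p in these 4 fits was between 0.202 and 1.00. The transcript of Bcl2, singled out here for its link with Fbxo10 and outside the naming rule, had log2 changes of 0.08, 0.08 and -0.00087 in the 3 comparisons, with limma adjusted p-values of 0.836, 0.739 and 1.00.

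**Figure D1:**
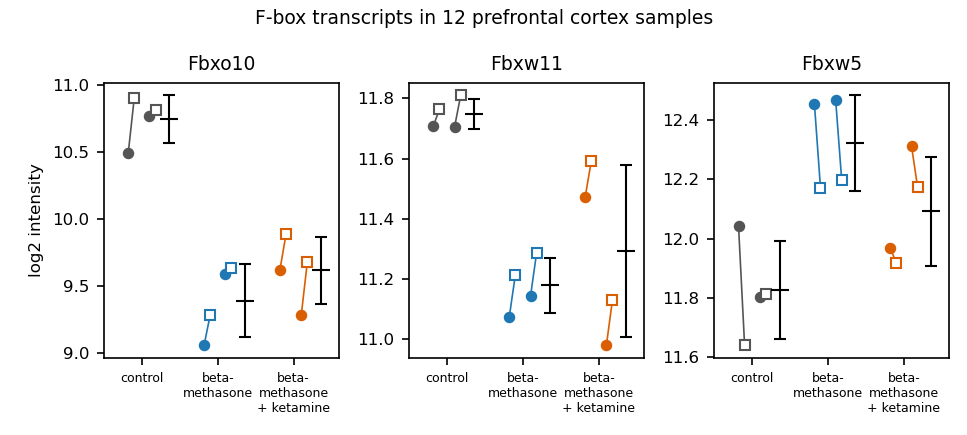
Normalised log2 intensity of Fbxo10, Fbxw11 and Fbxw5 in the 12 samples, by group; filled circles are Cy3 and open squares Cy5 samples, lines join the 2 samples of an array, and the black mark and bar are the mean and SD of 4 samples. Each vertical axis has its own range; for Fbxo10 the 8 exposed samples lie between 9.06 and 9.89 and the controls between 10.49 and 10.90.

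Among the other F-box genes after betamethasone alone, the differences were small and went both ways. Of those with a small unadjusted p or groups that did not overlap, more were higher than lower. Of the 54 tested F-box probes other than Fbxo10, 0 passed the threshold, an adjusted p under 0.05 by limma with Benjamini-Hochberg adjustment over all 21530 probes, where 0.214% of all tested probes passed. At an unadjusted p under 0.05 there were 10 of these 54 probes (18.5%), against 11.4% of all tested probes. Of these 8 were higher (14.8%, against 6.62% of all) and 2 lower (3.7%, against 4.79%). The betamethasone and control samples did not overlap for 14 of the 54 probes (25.9%), against 17.5% of all, with 11 higher (20.4%, against 10.4%) and 3 lower (5.56%, against 7.16%). The median log2 change over the 55 tested F-box probes was 0.03, as it was over all probes, and 31 of 55 lay above 0 (56.4%, against 56.3%). By subfamily the medians were 0.05 over 16 Fbxl probes, -0.03 over 30 Fbxo probes and 0.11 over 9 Fbxw probes. Scaling each sample to its 75th percentile without loess moved the median of all probes to -0.22 and left 17 of 55 F-box probes above 0 (30.9%), so the direction of small changes depends on the scaling.

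Fbxw11, also named beta-TrCP2, recognises phosphorylated beta-catenin and the NF-kappaB inhibitor encoded by Nfkbia. Its change was the largest among the tested F-box probes after that of Fbxo10. Its control values were 11.71, 11.76, 11.71 and 11.81, and its betamethasone values were 11.07, 11.21, 11.14 and 11.29. The groups did not overlap, and the log2 change was -0.57 (SE 0.13, 95% interval -0.84 to -0.29), with a limma adjusted p of 0.122. With ketamine the values were 11.47, 11.59, 10.98 and 11.13, again all below the controls, and the change was -0.45 (SE 0.13) with an adjusted p of 0.225. The 2 ketamine arrays differed from each other for this probe. Without the array of ketamine 1 and 2 the change was -0.69 with a limma adjusted p of 0.0064, and without that of ketamine 3 and 4 it was -0.22 with 0.072. The sign was the same under all 4 alternative scalings in both comparisons.

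Fbxw5, a WD40 receptor that also works with Ddb1 and Cul4 ligases, had the smallest p among the F-box probes with a positive change. Control values were 12.04, 11.64, 11.80 and 11.81, against 12.46, 12.17, 12.47 and 12.20 after betamethasone. The groups did not overlap, the change was 0.50 (SE 0.14), and the limma adjusted p was 0.208. The ketamine samples read 11.97, 11.92, 12.31 and 12.17 and overlapped both other groups. They split by array, with a mean of 11.94 for ketamine 1 and 2 and 12.24 for ketamine 3 and 4. The array means were 11.84 and 11.81 in controls and 12.31 and 12.33 after betamethasone.

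Further probes with small p-values after betamethasone had adjusted p-values by limma between 0.265 and 0.436. Fbxo28, a nuclear F-box protein that ubiquitylates Myc, was 0.27 higher (SE 0.09), with controls from 9.13 to 9.40 and betamethasone samples from 9.50 to 9.55. Fbxw4, known as dactylin for its link to limb malformation, was 0.37 higher (SE 0.16), with controls at 10.07, 9.79, 10.13 and 10.39 and betamethasone samples from 10.40 to 10.59. Fbxo7, mutated in an early-onset form of parkinsonism and active in mitophagy, was 0.47 higher (SE 0.21). Its betamethasone samples lay within 12.50 to 12.58, above controls that ranged from 11.51 to 12.36. The Fbxo7 controls split by array, with a mean of 11.79 for control 1 and 2 and 12.36 for control 3 and 4. The betamethasone arrays had means of 12.57 and 12.53. For Fbxo28, Fbxw4 and Fbxo7 the groups did not overlap, and the 3 signs held under all alternative scalings. Fbxl20, which controls turnover of the synaptic vesicle priming protein encoded by Rims1, was 0.18 higher (SE 0.08), but its sign turned under 2 scalings. Its probe was dim, well above background in 1 control, 2 betamethasone and 4 ketamine samples. Fbxw2 was 0.27 lower on the log2 scale (a change of -0.27, SE 0.11), with overlapping groups and a sign that turned to 0.12 when arrays were set to a common median after loess.

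Leaving out arrays moved the number of F-box probes past the threshold after betamethasone, Fbxo10 not counted, along with the number over all probes. Without the array of ketamine 1 and 2 it was 2 of 54 (Fbxw5 and Fbxw11, 3.7%), against 2.36% of all probes. Without that of ketamine 3 and 4 it was 3 of 54 (these with Fbxo15, 5.56%), against 2.02% of all. Over all arrays Fbxo15 was not called, with a change of -0.39 after betamethasone. Its controls lay from 8.73 to 8.91 and its betamethasone samples from 8.35 to 8.48. That sign held under the 3 alternative scalings with an estimate. The count was 0 without each of the other 4 arrays, where 0.107% to 1.89% of all probes were called.

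**Figure D2:**
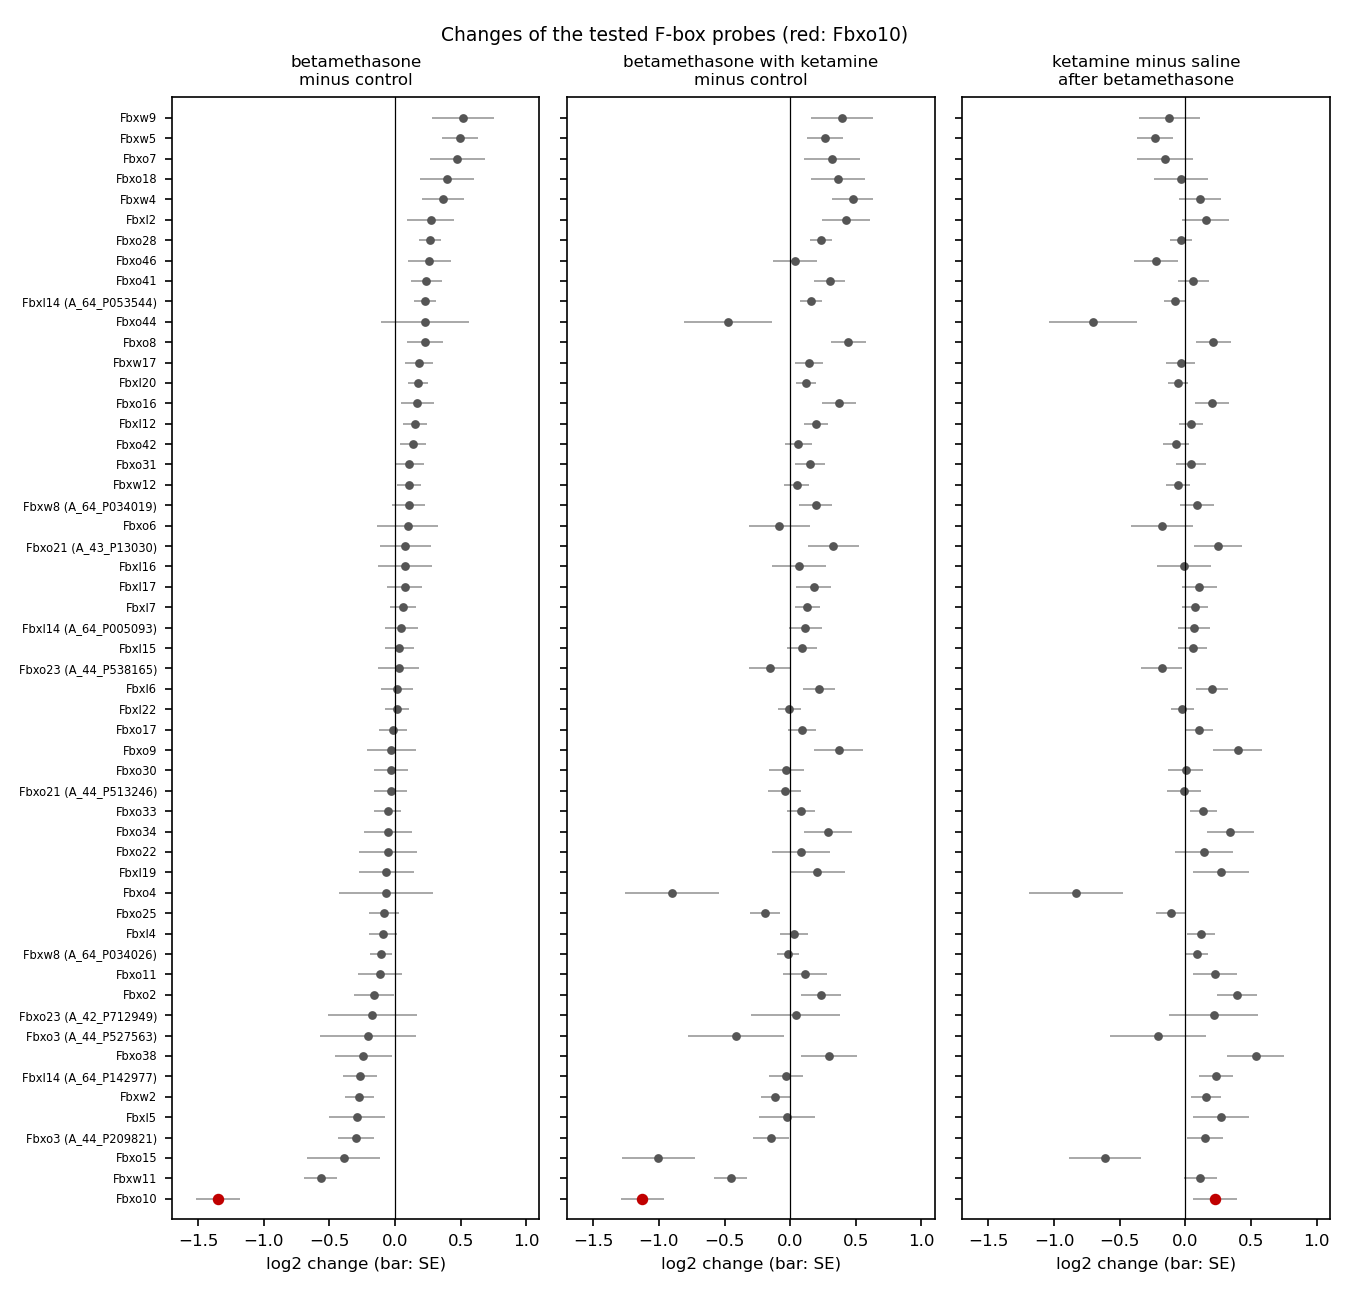
Log2 change of 54 of the 55 tested F-box probes in the 3 comparisons, ordered by the first; points are estimates, bars are SE, and red marks Fbxo10, which was chosen for its change against control. Most points lie within 0.5 of 0; the exceptions in the first panel are Fbxo10 at -1.35, Fbxw11 at -0.57 and Fbxw9 at 0.52.

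After betamethasone with ketamine, 0 of the 54 tested F-box probes other than Fbxo10 were called by limma, where 0.079% of all tested probes were called. This comparison shares its control samples with the one before. At an unadjusted p under 0.05 there were 10 of 54 (18.5%), against 13.9% of all, with 7 higher (13%, against 9.62%) and 3 lower (5.56%, against 4.25%). Groups did not overlap for 14 of 54 (25.9%), against 15.6% of all, with 11 higher (20.4%, against 11.9%) and 3 lower (5.56%, against 3.66%). The 3 lower probes were those of Fbxw11, Fbxo15 and Fbxo4. Fbxo15 and Fbxo4 had their spots in the area of the array of ketamine 1 and 2 where spots departed together. Their changes without the masked spots are given below. For Fbxo4 the highest ketamine sample read 8.8166 and the lowest control 8.8169. The median change of 0.11 over the 55 probes compares with 0.07 over all probes, and 38 of 55 lay above 0 (69.1%, against 64%). Under 75th-percentile scaling 44 of 55 lay above 0 (80%).

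Fbxo8, which carries a Sec7 domain typical of activators of Arf GTPases, was 0.44 higher (SE 0.14) with a limma adjusted p of 0.247. Its controls were 10.01, 9.95, 9.78 and 9.62, its betamethasone samples 10.08, 10.15, 10.03 and 10.03, and its ketamine samples 10.56, 10.37, 10.14 and 10.08. Both exposed groups lay above the controls. Fbxw4 was 0.48 higher (SE 0.16, adjusted p 0.285 by limma), at 10.72, 10.63, 10.50 and 10.44 in the ketamine samples. Fbxo16 was 0.37 higher (SE 0.13, limma adjusted p 0.293), with controls from 9.14 to 9.22. Its ketamine samples split by array, at 9.79 and 9.81 on one and 9.37 and 9.30 on the other. Fbxo41, a brain-enriched F-box protein of the neuronal centrosome, was 0.30 higher (SE 0.12, limma adjusted p 0.323), with ketamine samples from 9.11 to 9.20 above controls from 8.64 to 9.09. Fbxl2, a prenylated receptor found at membranes, was 0.43 higher (SE 0.18, limma adjusted p 0.339), with ketamine samples from 10.04 to 10.46 above controls from 9.44 to 10.02.

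The count of called F-box probes in this comparison, Fbxo10 not counted, moved with single arrays. It was 1 of 54 (Fbxw4, 1.85%) without the array of control 3 and 4, where 2.1% of all probes were called. It was 1 of 54 (Fbxw11, 1.85%) without the array of ketamine 1 and 2, against 0.543% of all. It was 9 of 54 (16.7%) without that of ketamine 3 and 4, against 16.2% of all. Calls were most numerous where ketamine 1 and 2 alone stood for their group, and a group left with 1 array was taken to vary like the others.

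Ketamine against saline, both after betamethasone, is a comparison on one slide. No F-box probe was called by limma, as no probe of the array was (0% of 21530). At an unadjusted p under 0.05 there were 4 of 55 F-box probes (7.27%), against 3.16% of all tested probes, with 2 higher (1.83% of all) and 2 lower (1.33% of all). The groups did not overlap for 1 of 55, Fbxo4, against 4.02% of all. The median change was 0.07 over the F-box probes and 0.05 over all, and 34 of 55 lay above 0 (61.8%, against 63.2%). The direction depends on the scaling: with arrays set to a common median after loess the medians were -0.10 and -0.07 with 21 of 55 above 0 (38.2%), and under 75th-percentile scaling they were 0.32 and 0.35 with 46 of 55 above 0 (83.6%).

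The 2 lower probes and 1 further probe named by rank, Fbxo44, lay in the area of the array of ketamine 1 and 2 where spots departed together. Fbxo4, a receptor for cyclin D1 and the telomere protein TRF1, read 8.85, 8.84, 8.85 and 8.86 after betamethasone, and 7.23, 7.21, 8.82 and 8.82 with ketamine. Fbxo15, a gene best known as a marker of embryonic stem cells, read 8.46, 8.48, 8.35 and 8.42 against 7.23, 7.24, 8.26 and 8.53. Fbxo44, a relative of the glycoprotein receptors, read 13.29, 13.14, 13.37 and 13.10 against 11.86, 11.98, 13.08 and 13.17. In each case the low pair shared that array and the other pair lay near the betamethasone group. The changes of -0.83, -0.61 and -0.70 became -0.03, -0.03 and -0.10 with the masked spots left out. Fbxo4 and Fbxo15 also changed sign under 75th-percentile scaling (0.19 and 0.45). Against control, the changes of Fbxo4 and Fbxo15 with ketamine were -0.90 and -1.003 (limma adjusted p 0.325 and 0.22), and -0.10 and -0.42 with the masked spots left out.

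**Figure D3:**
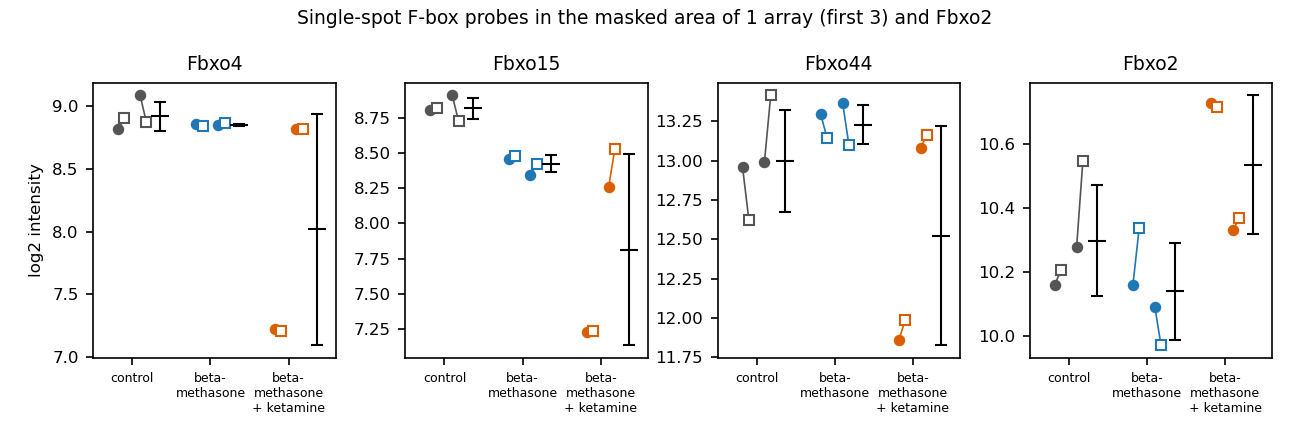
Normalised log2 intensity of Fbxo4, Fbxo15 and Fbxo44, whose single spots lay in the masked area of the array of ketamine 1 and 2, and of Fbxo2, whose spot did not; symbols, lines and bars are as in the plot of Fbxo10 levels, and each vertical axis has its own range. In the first 3 panels the 2 samples of 1 ketamine array lie apart from the other 2, for Fbxo4 at 7.23 and 7.21 against 8.82 and 8.82.

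Of the probes outside that area, Fbxo2 had the smallest p. It is a neuron-enriched receptor that binds high-mannose glycans on misfolded glycoproteins. Values were 10.16, 10.34, 10.09 and 9.97 after betamethasone and 10.73, 10.71, 10.33 and 10.37 with ketamine, where the highest betamethasone sample lay just above the lowest ketamine sample. The log2 change was 0.40 (SE 0.15, 95% interval 0.06 to 0.73) with a limma adjusted p of 0.909. Fbxo38, a coactivator of the neuronal factor Klf7, was 0.53 higher (SE 0.21), over 3 betamethasone samples since the value of betamethasone 4 was removed as an outlier spot. Its ketamine samples were 10.71, 10.57, 10.03 and 9.97, and its betamethasone samples 9.98, 9.999 and 9.52. Fbxo9, which acts on the Tel2 and Tti1 proteins of mTOR signalling, was 0.40 higher (SE 0.19), at 10.62, 10.55, 9.94 and 10.04 with ketamine against 9.74 to 10.07. For all 3, ketamine 1 and 2 were the high pair. Without their array the changes of Fbxo2, Fbxo38 and Fbxo9 were 0.21, 0.18 and 0.10, and without the other ketamine array they were 0.58, 0.83 and 0.69, with limma adjusted p-values of 0.034, 0.033 and 0.014. In that last setting 13 of 55 F-box probes were called (23.6%), against 11.9% of all probes.

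The glycoprotein receptors Fbxo6 and Fbxo2 and their relative Fbxo44 are neighbours on chromosome 5, in the order Fbxo6, Fbxo44 and Fbxo2. After betamethasone their changes were 0.10, 0.23 and -0.16, with limma adjusted p-values of 0.925, 0.857 and 0.758. The 3 neighbours thus showed no shared direction, and Fbxo2 changed sign under 1 scaling. Of the other genes fixed for known roles, Fbxl5, the iron-sensing receptor for the iron regulatory protein encoded by Ireb2, had a change of -0.29 (SE 0.21) after betamethasone, with betamethasone samples from 10.31 to 10.76 and controls from 10.74 to 10.95. Fbxl4, a mitochondrial protein whose loss depletes mitochondrial DNA, had -0.09 (SE 0.11). Fbxo11, a receptor for Bcl6, had -0.11 (SE 0.17), and Fbxo31, a receptor for cyclin D1, had 0.11 (SE 0.11). Fbxl16, an atypical member, had 0.08 (SE 0.20). None of these 5 reached an unadjusted p under 0.05 in any comparison, and their groups overlapped. Fbxo27, Fbxo45, Fbxw7 and Fbxl21 of the same list matched no probe by file name.

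Where a gene had several probes, they did not always move together. The probes of Fbxl14, a receptor for the transcription factor Snai1, had changes after betamethasone of 0.05 (SE 0.12), 0.23 (SE 0.08) and -0.26 (SE 0.13) in the order printed above. Probe 2 read 7.76, 7.64, 7.82 and 7.82 in controls and 8.07, 7.95, 8.01 and 7.93 after betamethasone. Probe 3 read 8.55, 8.88, 8.61 and 8.65 and then 8.37, 8.37, 8.35 and 8.54. Both pairs of groups were separate, in opposite directions, with limma adjusted p-values of 0.329 and 0.473. Probes 1 and 2, both 55% G+C, changed sign under 2 scalings, while probe 3, 35% G+C, kept its sign. Probes 1 and 2 read low, with probe 1 at 7.70, 7.56, 7.82 and 7.88 in controls. The controls of Fbxo32, too dim to test, ranged from 7.40 to 7.99. Neither probe 1 nor probe 2 had an estimate in the deposited value table. The dim probe of Fbxl20, at 41.7% G+C, changed sign under the same 2 scalings. The probes of Fbxw8, the partner of Cul7 at the Golgi of neurons, gave 0.10 (SE 0.13) and -0.11 (SE 0.09). The second Fbxw8 probe read low, from 7.63 to 7.93 over the 12 samples, and had no estimate in the deposited value table. The probes of Fbxo21 gave 0.08 (SE 0.19, with 1 control spot removed) and -0.03 (SE 0.13). Those of Fbxo23, which RefSeq now names Tspan17, a tetraspanin name, gave -0.17 (SE 0.34) and 0.03 (SE 0.16). For these 3 genes the 95% intervals of both changes spanned 0. Those of Fbxo3, a receptor that acts on Fbxl2, were both lower after betamethasone, at -0.30 (SE 0.14) and -0.20 (SE 0.37), and differed in sign only for ketamine against saline (0.15 and -0.21). The -0.21 of Fbxo3 probe 2 rests on ketamine 3, which read 7.86 against 9.06 to 9.26 in the other ketamine samples. Without the array of ketamine 3 and 4 the changes of both Fbxo3 probes were positive, 0.31 and 0.19.

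Among 54 tested F-box probes without Fbxo10, the G+C content of the probe and the change after betamethasone had a Pearson r of 0.39, and 0.12 over all 21530 probes, as a description across probes that share the same arrays. For the other comparisons it was 0.11 and -0.22 over the F-box probes, and 0.09 and -0.01 over all. The 3396 tested probes with a G+C content of 35% or less had a median change of -0.04 after betamethasone, and the 3558 with 55% or more had 0.05. Over the F-box probes without Fbxo10 these medians were -0.11 (9 probes) and 0.03 (12 probes). Fbxo10, Fbxw11 and Fbxl14 probe 3 were all at 35%, and Fbxw5 and Fbxl14 probes 1 and 2 at 55%. Other F-box probes went the other way. The 35% probe of Fbxl17 had a change of 0.07. Probes of Fbxo23, Fbxw8, Fbxo22, Fbxo21 and Fbxo17 at 55% had -0.17, -0.11, -0.06, -0.03 and -0.02. The part of base composition in these changes was not tested. Repeat spots give the measurement error within an array. For Fbxl4, Fbxo30 and Fbxw2, each printed 10 times, the median SD between spots of a sample was 0.26, 0.17 and 0.26 on the log2 scale.

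**Figure D4:**
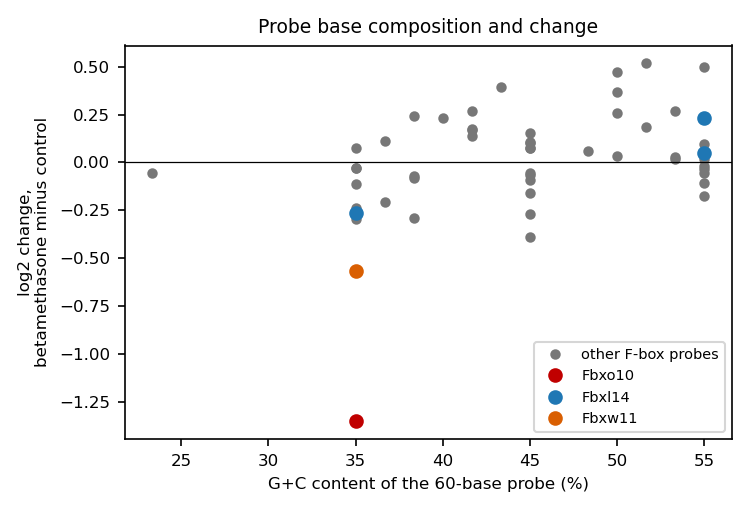
Log2 change after betamethasone (vertical) against the G+C content of the 60-base probe in percent (horizontal) for the 55 tested F-box probes. The 3 coloured sets are Fbxo10 at -1.35, Fbxw11 at -0.57 and the 3 Fbxl14 probes, of which the one at 35% lies below 0 and the 2 at 55% above it.

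Over the 12 samples, the F-box probes whose levels were most like those of Fbxo10 were Fbxw11 (Pearson r 0.91), Fbxw2 (0.72) and Fbxo3 probe 1, at chr3:89448163-89448223 (0.64). The samples fall into groups and share arrays, so these are descriptions. The r over 12 samples includes the difference from control by which Fbxo10 was chosen. Over the 8 exposed samples alone the r values were 0.72, 0.81 and 0.78. Other F-box probes were as high there, such as Fbxo11 (0.78), a Fbxo23 probe (0.77) and Fbxl2 (0.74). Over the 12 samples those had an r of 0.28, 0.18 and -0.56. Others were negative in the exposed samples, such as Fbxw12 at -0.81.

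The partners of F-box proteins showed no called probe by limma in any comparison. The SCF core (Skp1, Cul1, Rbx1 and Rnf7) was higher in 4 of 4 probes in each comparison, with median log2 changes of 0.08, 0.30 and 0.18, against 0.03, 0.07 and 0.05 over all probes. The smallest adjusted p among them was 0.384, for Cul1 at 0.41 (SE 0.20) after betamethasone with ketamine. COP9 signalosome probes, whose complex removes Nedd8 from cullins, were higher in 5, 8 and 8 of 11. Cullin neddylation and exchange factors were higher in 7, 9 and 10 of 17, and E2 conjugating enzymes in 3, 4 and 5 of 7. F-box genes with another name, such as Skp2 and Btrc, were higher in 2, 4 and 7 of 7 probes, and cofactors and regulators in 4, 4 and 5 of 6. Known substrates were higher in 8, 12 and 12 of 20.

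By the smallest p in these lists, Nfkbia, whose protein beta-TrCP recognises, was 0.65 higher (SE 0.14) after betamethasone, at 10.34 ± 0.167 in controls and 10.99 ± 0.118 after betamethasone (SD, n = 4 each, limma adjusted p 0.125). With ketamine it was 0.53 higher (SE 0.14, limma adjusted p 0.22). Ube2d1, an E2 enzyme used by SCF ligases, had a change of -0.65 (SE 0.17, limma adjusted p 0.206) after betamethasone. Jun, a transcription factor degraded through Fbxw7, was 0.70 higher (SE 0.16, limma adjusted p 0.167) after betamethasone with ketamine. For ketamine against saline the first genes were Ccne1, the cyclin E1 gene, at 0.51 (SE 0.17), and Dcun1d5, a neddylation factor, at -0.83 (SE 0.33), both with a limma adjusted p of 0.909. Dcun1d5 had an SD of 0.814 among the ketamine samples, against 0.123 after betamethasone.

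**Figure D5:**
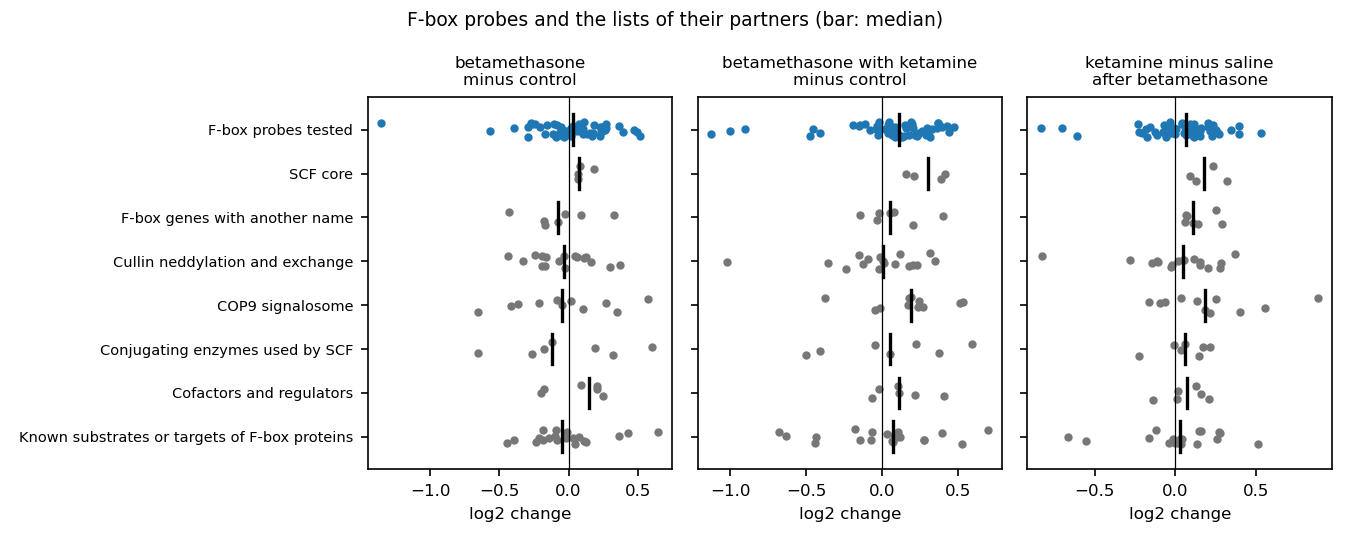
Log2 change of each tested probe (points) and the median (bar) for the F-box probes and 7 lists of partners, regulators and substrates, in the 3 comparisons. The bars of the SCF core lie at 0.08, 0.30 and 0.18, and those of the F-box probes at 0.03, 0.11 and 0.07.

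RefSeq promoter windows of the current rat build GRCr8, from 250 bases before to 50 after the start, matched 49 of the 61 genes, and that of Fbxo10 was not among them. The half-site of the glucocorticoid receptor, AGAACA on either strand, was found in 8 of the 49 (16.3%), against 20.1% of all 27457 windows. The full palindrome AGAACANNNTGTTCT, which contains the half-site on both strands, was in 0 of the 49 and 2 of all. A match is a description of letters in this window.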

How the data were processed

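Total RNA from 12 prefrontal cortex samples was labelled with Cy3 or Cy5 and hybridised in pairs to 6 arrays. The deposited scanner files hold spot intensities, extracted per the file headers with Agilent Feature Extraction 11.5.1.1 on the control slide and 11.0.1.1 on the other; the submitters' processing notes name version 10.7.3.1. Mean signals and local background medians were corrected with normexp (offset 50), loess-normalised within arrays and Aquantile-normalised between arrays, with control and outlier spots left out. Repeat spots of a probe were averaged. Log2 values of single channels were fitted with limma 3.58.1 in R 4.3.3 over all 12 samples, with dye as a term and array as a random block (correlation 0.55). All tests were 2-sided, with Benjamini-Hochberg adjustment over every tested probe and a threshold of 0.05. The authors' deposited value table holds ratios; the columns of control 1 and 2 matched the scanner data of control 3 and 4 and the reverse (4 columns), so it served only as an alternative. Masked areas are windows of 15 by 15 spots in which over 20% of spots lay further than 1 log2 unit from their median over the other 5 arrays.

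Of the 67 probes, 50 were named by RefSeq accession and 17 by symbol; RefSeq gives Fbxo18 as Fbh1 and Fbxo23 as Tspan17. Fbxo10 was left out of every count of called probes against control, since its levels there chose it. Members and lists were chosen with earlier results of these data known. Named genes were Fbxo10, any gene past the threshold, the 6 with the smallest p in each comparison, genes listed for known roles, genes whose probes differed in sign, the 3 probes most like Fbxo10 and, in the partner lists, the 2 smallest p per comparison. Same-numbered samples of different groups were not paired by the labels, and their deviations correlated by -0.07 to 0.09 (0 of 12 pairs over 0.1). Alternatives covered background correction, scaling, the filter on dim probes, masking, the array block, the replicate block, the samples in the fit, and leaving out samples and arrays. A member of the set is not reported here by name and is left out of the plot of changes by probe.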

Additional observations from a re-analysis of the deposited data

Results flagged for a closer look

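Of 106 sets of 4 samples from 36 named probes, 3 held a sample far from the other 3, and chance flags about 1 in 20 such sets. Fbxl14 probe 3 read 8.54 in betamethasone 4, against 8.35 to 8.37 in the other betamethasone samples. Fbxl16 read 8.52 in ketamine 3, against 8.16 to 8.19 in the other ketamine samples. Fbxo3 probe 2, at chr3:89453978-89454037 on the minus strand, read 7.86 in ketamine 3, against 9.06 to 9.26.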

How the results depend on the processing

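The log2 change of Fbxo10 against control kept its sign in all 30 alternatives per comparison. It lay between -1.67 and -1.13 after betamethasone and between -1.42 and -0.99 with ketamine. Filters, masking, the choice of block, array means and leaving out samples of the group not compared could not move it. They gave -1.35 and -1.13 again. These values chose the gene, and their range is a description. The number of F-box probes past the threshold, with Fbxo10 not counted against control, was 0 in each comparison. It stayed 0 under the other scalings, filters and masking, where only 0% to 0.729% of all probes were called. It stayed 0 too over array means, in the value table and without each single sample, where that share was 0% to 0.358%. Without the array block it was 4 after betamethasone and 2 with ketamine, where 4.8% and 4% of all probes were called. With only the 2 groups compared it was 1 after betamethasone (0.999% of all). Same-numbered samples share only a number; with the replicate block the counts were 2 and 1 (3.33% and 2.3% of all), and 0 for ketamine against saline. Without whole arrays the counts after betamethasone were 2 (ketamine 1 and 2, 2.36% of all) and 3 (ketamine 3 and 4, 2.02%). With ketamine they were 1 (control 3 and 4, 2.1%), 1 (ketamine 1 and 2, 0.543%) and 9 (ketamine 3 and 4, 16.2%), and for ketamine against saline 13 (ketamine 3 and 4, 11.9%).

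Over all probes, 46, 17 and 0 were called in the 3 comparisons. The counts were 85, 157 and 4 from processed signals, 88, 42 and 1 without a filter on dim probes, 80, 28 and 0 with masking, 30, 16 and 0 with probes well above background in all samples, 16, 7 and 0 in the value table, 1033, 862 and 1 without the array block, 718, 496 and 0 with the replicate block, 215, 2 and 0 with only the groups compared, 1, 1 and 0 over array means, and 0 in each under the other 2 scalings. With 1 probe per gene name they did not move. The 75th-percentile scaling shifted the median of all probes by over 0.1 in each comparison, to -0.22, 0.17 and 0.35, and the F-box median to -0.15, 0.22 and 0.32; processed signals shifted it by over 0.1 with ketamine, to 0.19, and array medians after loess did so for ketamine against saline, from 0.05 to -0.07. Of the 36 named probes, 23, 26 and 10 kept their sign under every other scaling. Dim probes limit what can be read of Fbxl20, Fbxo21 and Fbxw12, as do the low readings of Fbxl14 probes 1 and 2 and the second Fbxw8 probe. A further 12 genes were too dim to test.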

Other observations

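F-box genes not yet described included Fbxw9, with 1 of the largest positive changes after betamethasone (0.52, SE 0.23), at 10.40, 9.94, 9.80 and 10.36 in controls and 10.61 to 10.69 after betamethasone. The groups did not overlap, and the limma adjusted p was 0.436. Fbxo18, the DNA helicase that RefSeq names Fbh1, read 9.56 to 10.10 in controls, 10.15 to 10.34 after betamethasone and 10.12 to 10.32 with ketamine, so all 8 exposed samples lay above all controls; the changes were 0.40 and 0.36 (SE 0.20), with limma adjusted p-values of 0.494 and 0.44. Fbxl6 read 9.58 to 9.72 in the 8 samples without ketamine, 10.05 and 10.10 in ketamine 1 and 2, and 9.69 and 9.60 in ketamine 3 and 4. These 3 genes were chosen after their values were seen. One further probe outside the name rule is named Fbxo27, another glycoprotein receptor, by RefSeq through its accession. Its log2 changes were 0.18, 0.15 and -0.03 in the 3 comparisons, with limma adjusted p-values of 0.789, 0.738 and 0.989.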
